A study of Homo sapiens with 2 samples.

Results

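UBB and RPS27A are members of the small group of human genes that encode ubiquitin, and no NRF1 peak was called within 20 kb of a transcription start site (TSS) of either. Both genes were set by name, and every peak whose centre lay within 20 kb of any annotated start of the gene was to be assigned to it. This gave 0 of the 5683 deposited peaks for the 2 genes, out of 20162 protein-coding genes in the annotation.

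The peaks come from 1 chromatin immunoprecipitation sequencing (ChIP-seq) library of HCT116, a human colorectal cancer cell line, exposed for 16 h to 1 µM of MG132, an inhibitor of the proteasome. The immunoprecipitation used a polyclonal rabbit antibody raised against part of mouse NRF1. The second library of the series, an input from cells also exposed to MG132, was not used here. The series has no ChIP library of untreated cells, so an effect of MG132 on binding cannot be read from it. A list of peaks holds no expression values, so the labelled cell type could not be checked against its markers.

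Ubiquitin is a small protein that is attached to other proteins, often as a chain, and a chain of the right kind directs its carrier to the proteasome. No human gene encodes it as a free single unit. UBB encodes polyubiquitin, in which ubiquitin units follow each other head to tail, whereas RPS27A encodes 1 ubiquitin unit fused to a ribosomal protein. Deubiquitinating enzymes cut these precursors into free ubiquitin. NRF1 (NFE2L1) is a transcription factor that escapes degradation when the proteasome is inhibited, binds antioxidant response elements (AREs) together with small MAF proteins, and is best known for raising the transcription of proteasome subunit genes.

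AREs were searched on both strands in a shorter form, TGA(G/C)NNNGC, and in a longer form in which the 3 open letters are TCA. Both forms span 9 bases, and the longer form is named for its larger number of fixed letters. Every site in the longer form is also a site in the shorter form. The sites in the shorter form within 2 kb of the canonical starts of the 2 genes are shown first. They were chosen by position and not by their match to the longer form, and none of them lies in a peak. Each is given 5′ to 3′ on its own strand with 10 bases on each side, on hg19, with the ARE in capitals.
UBB, upstream, chr17:16283095-16283103, plus strand: cttgggaggcTGAGGTGGCaggataactt
UBB, upstream, chr17:16283973-16283981, minus strand: gctaagtaacTGAGCGCGCgtgcgccgca
UBB, intron 1, chr17:16284625-16284633, plus strand: gagggcgaggTGACGCGGCgctgggcctt
UBB, intron 1, chr17:16285060-16285068, plus strand: tcgtattaagTGACTTAGCcttgtaaaat
RPS27A, intron 2, chr2:55460027-55460035, plus strand: cgggtggtcaTGAGGAAGCcaaggtccga
RPS27A, intron 3, chr2:55460657-55460665, plus strand: ggggtcagatTGACAAAGCgaaatacttg
RPS27A, intron 4, chr2:55461454-55461462, minus strand: gaggttgcagTGACTGCGCcactcactcc

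The peaks that flank the 2 genes are shown next, and each of the 4 holds an ARE in the longer form. The share of all peaks that hold one was not counted, so these 4 may be typical of the list. For each peak the longer-form site nearest to the centre is printed in the same way.
Upstream of UBB, chr17:15995281-15995289, minus strand: aagcaatgcaTGAGTCAGCactcctggag
Downstream of UBB, chr17:16719323-16719331, plus strand: gtgagggaccTGAGTCAGCatgtggctgg
Upstream of RPS27A, chr2:55339039-55339047, plus strand: ccctgcagtaTGACTCAGCgtgttgaaat
Downstream of RPS27A, chr2:55717899-55717907, minus strand: gccacaagcaTGACTCAGCgccaaacttc

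On hg19, UBB spans chr17:16284112-16286059 and is read from the plus strand. Its canonical transcript has 2 exons and starts at 16284405, and the annotation gives 7 distinct starts between 16284112 and 16284779. No peak centre lay within 20 kb of any of them, and the nearest was 288.9 kb away. This peak, on the upstream side, ran from 15994962 to 15995472 with a score of 87.64, rank 3023 of 5683, inside NCOR1, which encodes a nuclear receptor corepressor. The score is the one that MACS writes, the −log10 of the peak p-value multiplied by 10, and the lowest score on the list was 50.00. On the downstream side the next peak ran from 16718909 to 16719646, 434.9 kb from the canonical start, with a score of 560.54 (rank 90) and outside any protein-coding gene. No other protein-coding gene has a start within 20 kb of a start of UBB.

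RPS27A spans chr2:55459039-55462989, also read from the plus strand. Its canonical transcript has 6 exons and starts at 55459824, and there are 9 distinct starts between 55459039 and 55460493. Again no peak centre lay within 20 kb, and the nearest was 120.0 kb away. It ran from 55338794 to 55339279 with a score of 94.86 (rank 2719), with its centre 667 bp from a start of RTN4, which encodes the reticulon protein Nogo. On the downstream side the next peak ran from 55717632 to 55718189, 258.1 kb from the canonical start, with a score of 78.91 (rank 3467). CLHC1, on the opposite strand, has a start 78 bp from one of RPS27A, so that these genes share the sequence between their starts, and MTIF2, which encodes a mitochondrial translation initiation factor, has one 16177 bp away. These neighbours had 0 peaks within 20 kb as well.

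**Figure D1:**
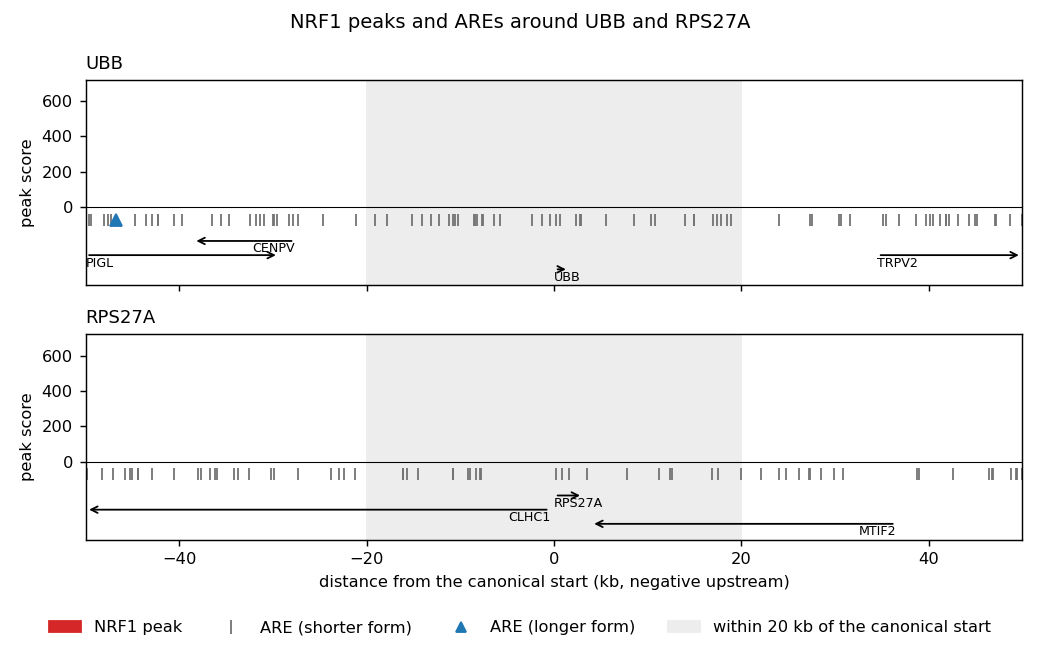
NRF1 peaks and AREs from 50 kb upstream to 50 kb downstream of the canonical start of UBB and RPS27A. Red bars give the score of each peak at its position, grey ticks the AREs in the shorter form, blue triangles those in the longer form, and arrows the protein-coding genes from canonical start to end, drawn to the edge where they reach past it. Neither gene has a bar anywhere in the plot, the shorter form is found throughout, and the longer form appears only 46.8 kb upstream of UBB.

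The lack of a peak was set beside all protein-coding genes. Of these, 3766 of 20162 (18.7%, 95% Wilson interval 18.1 to 19.2%) had a peak within 20 kb of a TSS, and 1215 (6.03%, 5.71 to 6.36%) had one within 2 kb. Being without a peak is therefore what most genes show, and 0 of 2 genes cannot be told from this background. The nearest peak was a median of 105.2 kb from a protein-coding gene, with quartiles of 32.4 and 270.5 kb. By this measure RPS27A lay near the middle, with 46.6% of the genes at least as far from a peak, and UBB lay farther out, with 23.3% at least as far. By count, the wider surroundings were not poor in peaks. Within 500 kb of the canonical start there were 5 peaks for UBB and 6 for RPS27A, against a median of 3 and quartiles of 1 and 4 over all genes. The centres of the flanking peaks were 724 kb apart for UBB and 379 kb apart for RPS27A. The median of this gap over protein-coding genes was 631 kb, so only the gap at UBB was longer.

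**Figure D2:**
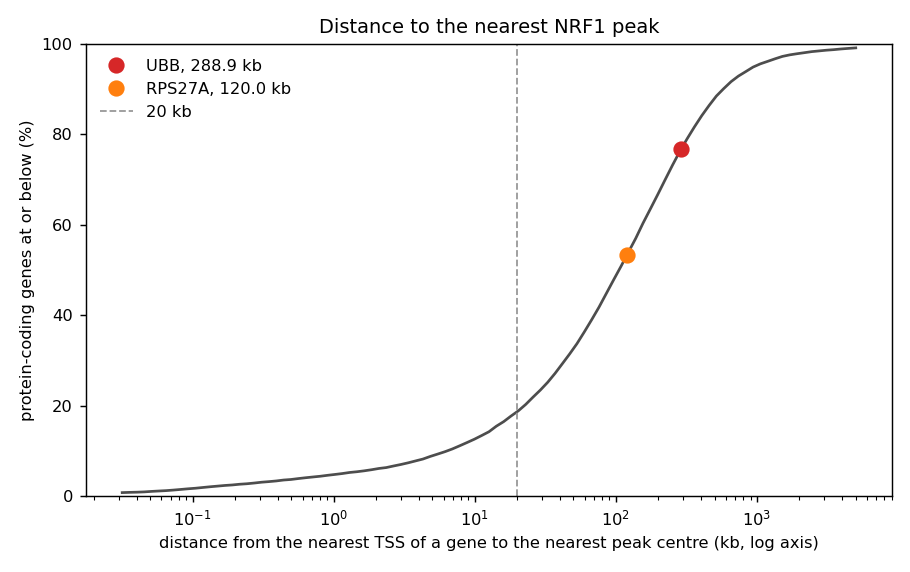
Cumulative share of the 20162 protein-coding genes (vertical axis, percent) by the distance from the nearest of their TSSs to the nearest peak centre (horizontal axis, kb, log scale). Points mark UBB and RPS27A and the dashed line 20 kb. UBB at 288.9 kb and RPS27A at 120.0 kb both lie to the right of the line.

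The AREs around the 2 genes were then counted. Within 20 kb of its starts UBB had 37 AREs in the shorter form and RPS27A had 22, against a median of 48 and quartiles of 35 and 67 over protein-coding genes. At least as many were found at 71.2% of the genes for UBB and at 95.2% for RPS27A. These counts grow with the spread of the starts of a gene, which was not adjusted for. Within 2 kb of the canonical start lie the 4 sites of UBB and the 3 of RPS27A printed above. Their middle bases were at −1306, −428, 224 and 659 bp from the start of UBB and at 207, 837 and 1634 bp from that of RPS27A. The site of UBB at 659 bp is the closest to the longer form, with 2 of the 3 open letters in common with TCA, and the other 6 had 0 or 1.

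In the longer form, neither gene had an ARE within 20 kb. The nearest was 46.8 kb upstream of UBB, inside PIGL, a gene of glycosylphosphatidylinositol synthesis, at 16237636 to 16237644, and 73.2 kb upstream of RPS27A, at 55386659 to 55386667. Such a lack is common, since 6546 of the protein-coding genes (32.5%) had no longer form within 20 kb. Of these genes 7.73% (95% Wilson interval 7.11 to 8.40%) had a peak within 20 kb, against 23.9% (23.2 to 24.7%) of the 13616 genes with 1 or more. Genes that are neighbours share peaks and AREs, so these shares describe the list and are not independent counts. AREs and peaks were both counted around all starts of a gene, so a wide spread of starts can raise both. This was not adjusted for. Most longer forms lay outside peaks. Of the 21023 within 20 kb of a protein-coding TSS, 1912 (9.09%, 8.71 to 9.49%) lay in a peak. Between the peaks that flank UBB there were 10 longer forms in 723436 bases, and between those that flank RPS27A there were 5 in 378352 bases.

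The window from 250 bases before to 50 after the canonical start was searched for other motifs too, on both strands. Neither window held the AP-1 form TGANTCA (found in 5.40% of the windows of 19881 protein-coding genes), the cyclic AMP response element TGACGTCA (2.68%), a CCAAT box (36.0%), TATAAA (9.62%) or an ARE in the shorter (30.9%) or longer form (0.744%). A heat shock element, searched as 3 alternating GAA and TTC units with 2 open bases between units, was found in neither window and in 0.362% of all. For the motifs other than the ARE, sequence outside these windows and inexact matches were not searched. Every ARE in the longer form contains the AP-1 form, so these 2 motifs are not separate. The windows had 51.0% G and C for UBB and 55.0% for RPS27A, with a median of 63.7% over all windows.

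Reads from repeated sequence can map to several places, and ubiquitin genes have near-identical coding units and processed pseudogenes. Around the canonical start of UBB, 83.5% of the stretches of 50 bases within 2 kb and 85.4% of those within 20 kb occurred once in the genome. For RPS27A these shares were 96.2% and 94.4%. The stretches are shorter than the reads that the paper describes, and the shares were not computed for other genes. The intervals between the flanking peaks held 0 undetermined bases for either gene. How the authors treated reads with several matches is not given in the sources used here.

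Genes that handle ubiquitin were counted in the same way. Of the 2 ubiquitin-activating enzymes, UBA1 and UBA6, 0 had a peak within 20 kb. Of 5 deubiquitinating enzymes that process the precursors, USP7 had 2 peaks, the higher with a score of 57.96, and USP5 had 1, with 50.61. UCHL3, USP9X and OTULIN had none. Both scores lie close to the lowest on the list. Of 35 genes of ubiquitin-conjugating (E2) enzymes, 7 had a peak within 20 kb (20%, 95% Wilson interval 10.0 to 35.9%), a share near the 18.7% of all protein-coding genes. Within 2 kb, 2 of the E2 genes had a peak (5.71%), against 6.03% of all protein-coding genes. The highest-scoring of the peaks within 20 kb were those of UBE2O (410.61), UBE2H (193.81) and UBE2D3 (187.59). Their centres lay 6407, 4405 and 13119 bp from the nearest start of the gene. None of 10 genes of ubiquitin-like proteins, among them NEDD8 and FAU, the last of which is also a ribosomal protein gene, had one (interval up to 27.8%).

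RPS27A is also a ribosomal protein gene. Of 87 such genes, paralogues included, 9 had a peak within 20 kb (10.3%, 95% Wilson interval 5.54 to 18.5%) and 1 within 2 kb (1.15%). Over all protein-coding genes these shares were 18.7% and 6.03%, and the difference was not tested. The peak of RPL17, 1 of these genes, had a score of 112.38 and lay 13356 bp from the start, closer to a start of C18orf32. The median distance of the ribosomal protein genes to the nearest peak was 85.8 kb, shorter than the 105.2 kb over all protein-coding genes although fewer of them had a peak within 20 kb, and RPS27A was at 120.0 kb. RPS27A was thus among the majority of the ribosomal protein genes, which had no peak in the window.

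**Figure D3:**
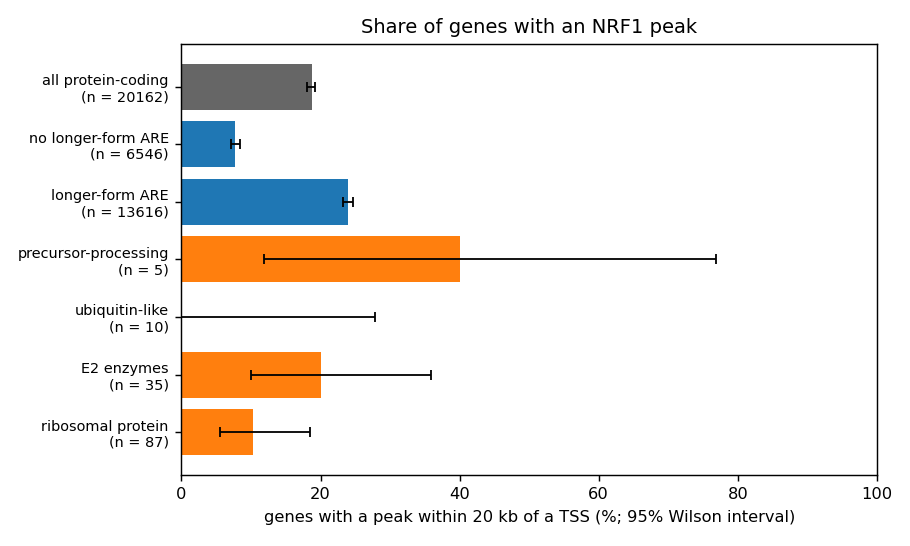
Percentage of genes with an NRF1 peak within 20 kb of a TSS, for all protein-coding genes (grey), for genes without and with an ARE in the longer form within 20 kb (blue) and for the gene lists (orange). Whiskers give the 95% Wilson interval and reflect counting error alone. The share was 7.73% for genes without a longer-form ARE, the class that holds UBB and RPS27A, and 23.9% for the others. A wide spread of the starts of a gene can raise both counts and was not adjusted for. The intervals of the E2, precursor-processing and ubiquitin-like lists include the 18.7% of all genes. That of the ribosomal protein list ends at 18.5%.

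The lowest score on the list, 50.00, corresponds to a p-value of 1e-05, and the threshold set by the authors is not given in the sources used here. The number of reads is unknown. An enrichment below the lowest score could not be seen at UBB or RPS27A, and the lack of a peak is not evidence that NRF1 was absent there. The names of the peaks are numbered from 1 to 5683 with 0 numbers missing, and the peaks that flank each of the 2 genes carry consecutive numbers (2139 and 2140 for UBB, 2801 and 2802 for RPS27A).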

How the data were processed

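Per the labels and the methods, the authors aligned the single-end reads by Bowtie2 2.2.6 (hg19) and called peaks with MACS 1.4.2. The deposited score is that of MACS. Its settings, the handling of duplicate reads and the control library are not given in the sources used here. Groups were taken from the labels, with 1 ChIP library and no replicates, so that no test between conditions was made.

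Positions, TSSs and sequences came from GRCh37, the same build, with GENCODE 44 lifted to it, and the peaks were within the lengths of its chromosomes. Peak positions are 1-based. A peak was assigned by its centre. Shares carry 95% Wilson intervals. The planned count of repeated sequence in the peaks was made around the starts, since the genes have no peak. The genes, lists and windows were chosen with earlier results of these data known. The genes named are UBB, RPS27A and list members with a peak, at most 3 for the E2 and ribosomal lists. Other genes covered by this rule are not reported here. Neighbouring and flanking genes, the list members named without a peak, and the comparison of genes with and without a longer-form ARE were chosen after their values were seen. The authors' array values were not used here. The search and the counts were tested on simulated data. Python 3.11.15, numpy 2.4.6, scipy 1.17.1, pysam 0.24.0 and matplotlib 3.10.9 were used.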

Additional observations from a re-analysis of the deposited data

How the results depend on the processing

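For UBB and RPS27A the count of peaks, and of peaks with an ARE, was 0 under all 16 alternatives, which were windows of 2, 10 and 50 kb, distances to the peak edge, starts of protein-coding transcripts only, scores of at least 100, the longer ARE and the central 200 bp. With the nearest peaks at 288.9 and 120.0 kb, none of these alternatives could have given another value, so they say nothing about stability. The share of genes with a peak within 20 kb was 12.6% over all annotated genes, 9.45% with scores of at least 100 and 16.0% with starts of protein-coding transcripts. For ribosomal protein genes it was 1.15% within 2 kb and 4.60% with scores of at least 100. Of the longer forms near a TSS, 8.11% lay in the central 200 bp of a peak. No paired analysis was possible because the series has 1 ChIP library. The depth behind the list is unknown and limits what a missing peak can show.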
